A study of Arabidopsis thaliana with 24 samples.

Results

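The 10 genes described here are transcribed mainly in the tapetum of the anther or serve the building of the pollen wall, out of 32548 genes listed in each of the deposited tables. They are AMS, MS1, ACOS5, MS2, A9, A7, LTP12, TSM1, ATA27 and GRP19, taken by their locus identifiers in all 8 groups of libraries. They were named as a sign of anther development with the 20-day values in view, so the 20-day values are a description: no p-value of a member is printed there, and counts of calls stand beside the share of all genes and support nothing. RNA was sequenced from 24 Arabidopsis thaliana libraries, 3 per group, all labelled as seedlings and grown at 22 °C in long days (16 h light, 8 h dark). The mutants lack, in combinations, HAG2 (a type B histone acetyltransferase), MSI2 and MSI3 (WD40 histone-binding proteins) and NASP (a histone chaperone), to ask what the parts of this histone-handling complex do for transcription. At 12 days, plants on plates of Murashige and Skoog medium were wild type (Col-0), nasp, hag2 nasp, msi2 msi3 nasp or hag2 msi2 msi3. At 20 days, plants from a growth chamber were wild type, msi2 msi3 or hag2 msi2 msi3. The sources used here do not say how many plants went into a library or whether replicates were grown apart, so a p-value here speaks only to the spread among the libraries sequenced.

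The tapetum is the innermost layer of the anther wall and feeds the developing microspores. Its cells make the precursors of sporopollenin, the tough polymer of the outer pollen wall (the exine), and later release the lipids and proteins that coat the pollen grain. Its development runs through a cascade of transcription factors in which DYT1 and TDF1 act before AMS, and MYB80 and MS1 act after it. AMS is a basic helix-loop-helix (bHLH) factor, and MS1 is a PHD-finger factor of late tapetum development. ACOS5, an acyl-CoA synthetase, and MS2, a fatty acyl reductase, belong to the sporopollenin pathway. A9, A7 and LTP12 are small secreted proteins of the lipid-transfer type. TSM1 is a methyltransferase for the phenolic polyamine conjugates of pollen, ATA27 is a beta-glucosidase, and GRP19 is a glycine-rich, oleosin-type protein of the pollen coat.

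The members lie on all 5 chromosomes and share no locus. In TAIR10.1 coordinates from RefSeq, AMS (AT2G16910) is at chr2:7331721-7334254 on the plus strand and MS1 (AT5G22260) at chr5:7367635-7370295 on the minus strand. ACOS5 (AT1G62940) is at chr1:23310532-23312795 and MS2 (AT3G11980) at chr3:3814231-3817117, both on the plus strand. A9 (AT5G07230) is at chr5:2270948-2271610 and A7 (AT4G28395) at chr4:14043940-14044902 on the plus strand, and LTP12 (AT3G51590) is at chr3:19135619-19136675 on the minus strand. TSM1 (AT1G67990) is at chr1:25489455-25490867 and ATA27 (AT1G75940) at chr1:28511142-28514284 on the plus strand. GRP19 (AT5G07550) is at chr5:2388225-2389249 on the minus strand.

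The sequences below are the 250 bases before the annotated start of 5 members, 3 with a match and a pair without, shown because AMS and other bHLH factors are known to bind the E-box, CANNTG. They are written 5′ to 3′ on the strand of the gene, with every CANNTG in capitals. MS2 lies at chr3:3813981-3814230, ACOS5 at chr1:23310282-23310531 and ATA27 at chr1:28510892-28511141, all on the plus strand. A9 lies at chr5:2270698-2270947 on the plus strand and GRP19 at chr5:2389250-2389499 on the minus strand.
MS2: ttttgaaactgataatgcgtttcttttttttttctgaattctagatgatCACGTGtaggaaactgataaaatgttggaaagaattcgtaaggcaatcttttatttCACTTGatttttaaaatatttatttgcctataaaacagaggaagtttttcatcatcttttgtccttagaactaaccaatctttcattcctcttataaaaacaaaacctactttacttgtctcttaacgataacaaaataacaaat
ACOS5: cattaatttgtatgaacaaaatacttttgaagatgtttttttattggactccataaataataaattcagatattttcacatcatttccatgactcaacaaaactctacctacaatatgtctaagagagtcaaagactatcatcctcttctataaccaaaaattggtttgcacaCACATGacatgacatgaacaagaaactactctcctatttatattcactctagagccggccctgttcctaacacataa
ATA27: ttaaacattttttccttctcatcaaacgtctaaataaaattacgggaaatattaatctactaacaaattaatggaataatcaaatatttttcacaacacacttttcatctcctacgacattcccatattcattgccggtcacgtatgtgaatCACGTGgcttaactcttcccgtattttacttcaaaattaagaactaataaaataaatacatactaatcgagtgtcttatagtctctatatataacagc
A9: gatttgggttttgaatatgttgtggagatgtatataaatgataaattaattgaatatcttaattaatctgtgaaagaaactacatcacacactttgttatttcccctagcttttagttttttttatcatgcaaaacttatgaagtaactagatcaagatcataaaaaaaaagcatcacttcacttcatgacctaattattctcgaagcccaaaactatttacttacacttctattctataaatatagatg
GRP19: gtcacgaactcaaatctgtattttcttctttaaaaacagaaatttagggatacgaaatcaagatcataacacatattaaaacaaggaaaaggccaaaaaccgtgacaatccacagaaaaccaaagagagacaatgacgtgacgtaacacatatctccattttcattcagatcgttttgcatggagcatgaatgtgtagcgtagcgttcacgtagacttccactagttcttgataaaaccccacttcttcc
CANNTG reads the same on both strands. It occurred in 7 of the 10 member promoters, and in 55.32% of the 27443 promoters of protein-coding genes of this length. MS2 and ATA27 each hold CACGTG, with its first base 201 and 98 bases before the start. ACOS5 holds CACATG, whose opposite strand reads CATGTG, 77 bases before the start. CATGTG, a form of the E-box, was found on either strand in 1 of 10 members and in 11.09% of all promoters. CCAACC was found on either strand in 0 of 10 members and in 6.322% of all promoters. A9, GRP19 and AMS hold no CANNTG in this window. These are matches of letters and do not show where a factor binds.

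The check of the mutated genes bears on how the groups are named. In msi2 msi3 at 20 days, MSI3 stood at 17.7% and MSI2 at 46.2% of the wild type mean. In the libraries labelled hag2 msi2 msi3, HAG2 stood at 14.2% and MSI3 at 16.7% at 20 days, but MSI2 at 82.1%, and at 92.9% at 12 days. Transcript level alone does not show whether a protein is made. "The triple mutant" below therefore means the libraries labelled hag2 msi2 msi3, and directions drawn from them carry this limit. NASP stood at 29.98% in nasp, at 26.1% where hag2 was also mutated and at 27.2% where msi2 and msi3 were.

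At 20 days every member was higher in every msi2 msi3 library and in every library of the triple mutant than in any wild type library. The deposited values are normalized gene-level read values, whose total per library ranged from 45.7 to 48.2 M (mega, the prefix of Mb) at 20 days and was 19.6 to 21.0 M at the younger age. Summed over the 10 members, they came to between 219 and 356 in the wild type, between 2601 and 3020 in msi2 msi3 and between 2128 and 2203 in the triple mutant. The mean sums were 10.3 and 8.04 times that of the wild type. Across all genes tested, all 3 msi2 msi3 libraries lay above the wild type in 13.7% and below it in 13.9%, and those of the triple mutant lay above it in 12.3% and below in 11.1%. By limma's test at a Benjamini-Hochberg adjusted p below 0.05, 3.45% of the 23707 genes tested were called higher and 4.15% lower in msi2 msi3 (7.6% in all), and 2.58% higher and 1.71% lower in the triple mutant (4.29% in all). By this test 10 of 10 members were called in each. The members were chosen on these values, so nothing is read from that count. The 2 comparisons share the wild type libraries. Of the called genes, 45.4% were higher in msi2 msi3, or 58.0% with libraries rescaled to the same total.

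**Figure D1:**
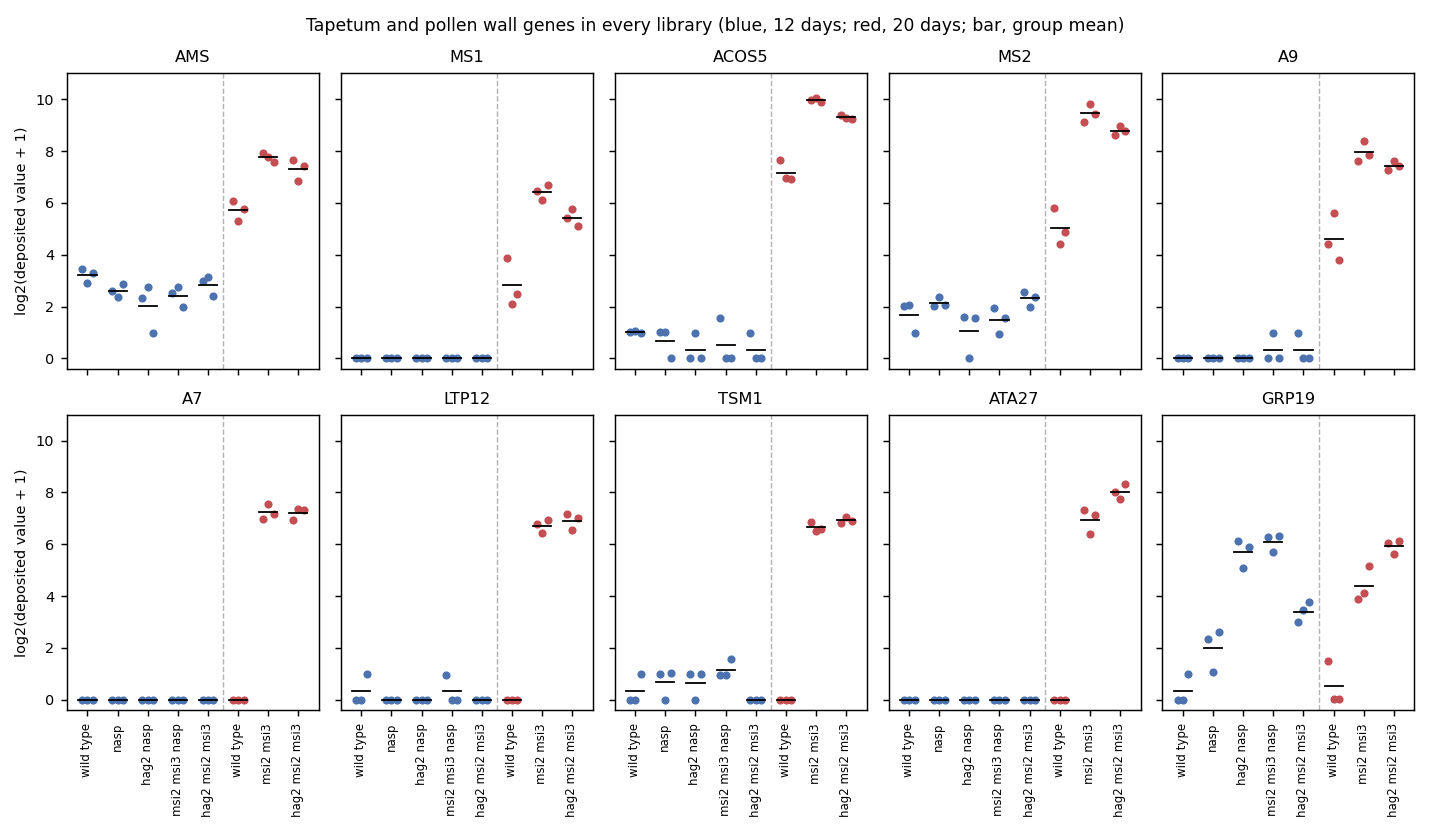
Deposited values of the 10 tapetum and pollen wall genes as log2(value + 1) (vertical axis) in each library of the 8 groups (horizontal axis); each point is a library and each bar the mean of 3. At 20 days (red) all points of both mutant groups lie above those of the wild type in each panel, while at 12 days (blue) most panels lie near 0 and GRP19 is above the wild type in every mutant.

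Of the regulators, AMS had values of 66.2, 38.7 and 52.7 in the 3 wild type libraries at 20 days. It had 242, 215 and 191 in msi2 msi3 and 203, 113 and 172 in the triple mutant. AMS was thus already well above 0 in the wild type, and its log2 fold changes, 2.05 ± 0.25 (standard error) in msi2 msi3 and 1.60 ± 0.25 in the triple mutant, were the smallest among the 6 members with a wild type value. Fold changes here are on the log2(value + 1) scale, which understates those of low genes. MS1 had 13.7, 3.31 and 4.63 in the wild type, 87.3, 68.5 and 103 in msi2 msi3, and 41.2, 52.9 and 33.5 in the triple mutant. Its log2 fold changes were 3.60 ± 0.43 and 2.59 ± 0.43. The first wild type library had the highest value of AMS, MS1, ACOS5, MS2 and GRP19 in its group, and the second that of A9.

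Of the sporopollenin enzymes, ACOS5 had 199, 122 and 120.5 in the wild type. It had 999.9, 1043 and 956 in msi2 msi3 and to 671, 618 and 603 in the triple mutant, with replicates of each mutant close together. Its log2 fold changes were 2.80 ± 0.16 and 2.13 ± 0.16. MS2 had 55.04, 20.6 and 28.3 in the wild type, 556, 896 and 680.2 in msi2 msi3, and 387, 501 and 439 in the triple mutant. With log2 fold changes of 4.41 ± 0.28 and 3.75 ± 0.28, MS2 changed most among the members that had at least 1 in every wild type library.

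Of the lipid-transfer-type proteins, A9 had 20.1, 47.4 and 12.9 in the wild type, 196, 332 and 227 in msi2 msi3, and 155, 195 and 169 in the triple mutant. Its log2 fold changes were 3.35 ± 0.36 and 2.84 ± 0.36. A7 was at 0 in all 3 wild type libraries and at 124, 188 and 144 in msi2 msi3 and 122, 161 and 160.0 in the triple mutant. LTP12 was also at 0 in the wild type. Its values were 110.1, 86.2 and 120.1 in msi2 msi3 and 143, 91.7 and 128 in the triple mutant.

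TSM1, the methyltransferase, was at 0 in the wild type, at 115, 90.1 and 94.8 in msi2 msi3 and at 113, 133 and 116 in the triple mutant. ATA27, the beta-glucosidase, was at 0 in the wild type, at 157, 84.1 and 140.4 in msi2 msi3 and at 255, 215 and 315 in the triple mutant. A7, LTP12, TSM1 and ATA27 therefore passed the filter on low values only through the mutants, and no fold change against the wild type is given for them. GRP19, the pollen coat protein, had 1.84, 0.0105 and 0.0185 in the wild type, 13.6, 16.6 and 35.0 in msi2 msi3 and 64.3, 48.0 and 67.8 in the triple mutant. Its log2 fold changes, 3.88 ± 0.53 and 5.40 ± 0.53, depend on the pseudocount because the wild type values are near 0, and were 2.18 and 3.53 with a pseudocount of 5.

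Per kilobase of exon, levels in msi2 msi3 ran from ACOS5 (588 ± 25.7, SD, n = 3) through A9 (463 ± 131) and MS2 (336 ± 81.2) down to MS1 (39.3 ± 7.80) and GRP19 (29.6 ± 15.8). A7, LTP12, TSM1, AMS and ATA27 lay between, at 198, 179, 116, 114 and 66.7 per kilobase. The ranges of mean ± SD of neighbours in that order overlapped, except between MS2 and A7, LTP12 and TSM1, and AMS and ATA27. In hag2 msi2 msi3, ACOS5 (371 ± 21.1) and A9 (319 ± 37.4) again led, and MS1 (19.4 ± 4.45) came last, below GRP19 (81.7 ± 14.4). In the wild type ACOS5 (86.6 ± 26.5) stood highest, ahead of A9 (49.4 ± 33.5), AMS (27.7 ± 7.28) and MS2 (16.4 ± 8.54).

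After adjustment over all genes, limma called 0 of the 10 members between the 2 mutants, so the differences that follow are a description. Every library of the triple mutant was below every msi2 msi3 library for MS2, A9, MS1 and ACOS5, and above every such library for ATA27 and GRP19. The log2 differences, triple mutant minus msi2 msi3, were −0.66 ± 0.28 for MS2, −0.51 ± 0.36 for A9, −1.01 ± 0.43 for MS1 and −0.66 ± 0.16 for ACOS5. They were 1.07 ± 0.33 for ATA27 and 1.52 ± 0.53 for GRP19. Values overlapped for A7 (−0.03 ± 0.32), LTP12 (0.18 ± 0.35), AMS (−0.44 ± 0.25) and TSM1 (0.27 ± 0.33). Among all genes tested, 7.74% lay wholly below and 9.46% wholly above. Limma called 1.19% of genes in this comparison, 1.02% higher and 0.165% lower. At an unadjusted p below 0.05 there were 5 members, 2 higher and 3 lower. The share of all genes at that unadjusted threshold was not counted, here or for the lists below, so nothing is read from such counts. Of all genes called here 86.1% were higher, or 68.6% with libraries rescaled to the same total.

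**Figure D2:**
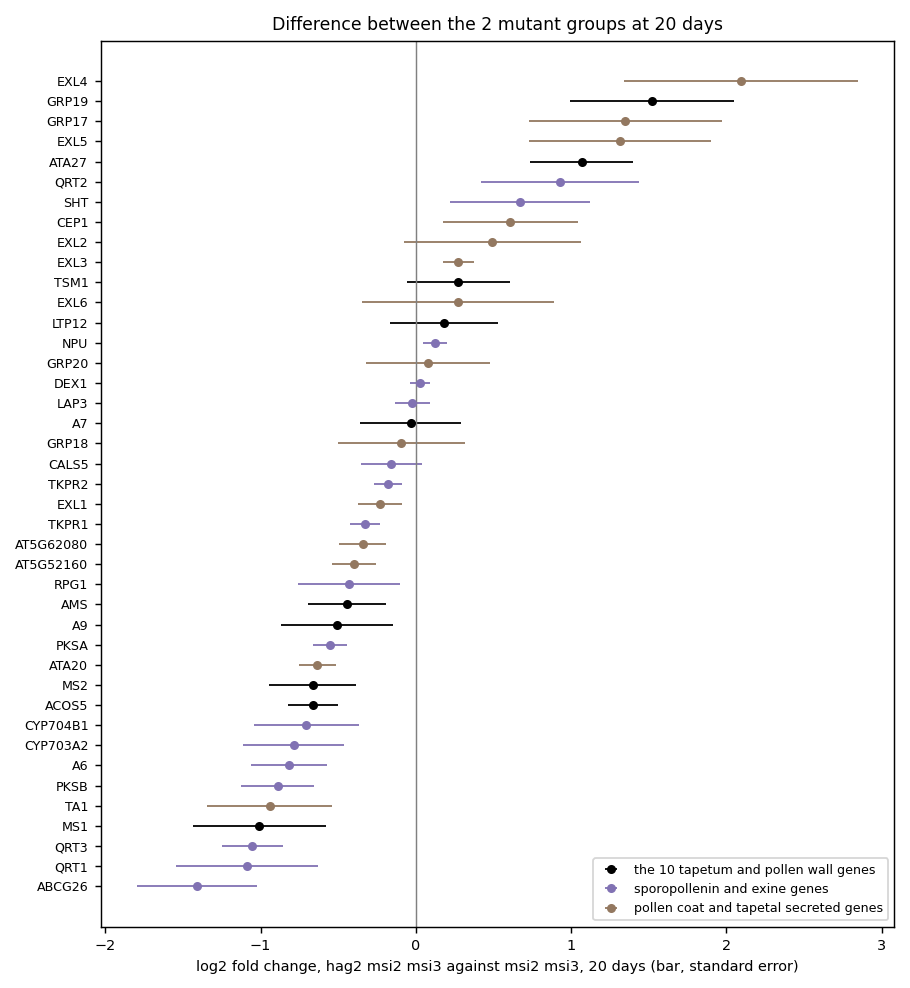
Log2 fold change of hag2 msi2 msi3 against msi2 msi3 at 20 days (horizontal axis) for the 10 members and for tested sporopollenin and pollen coat genes whose higher group mean was 10 or more; points are estimates and bars their standard errors. ABCG26, QRT3, ACOS5 and MS2 lie left of 0 (lower in the triple mutant), and GRP19, GRP17 and EXL4 lie right of it. Coat genes lie on both sides, with ATA20 on the left.

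Most other tested genes of the sporopollenin and exine pathway were higher as well at 20 days. This list and the others below were chosen with earlier results of these data known, so their 20-day counts and p-values are a description. Over all genes tested, 3.45% were called higher and 4.15% lower in msi2 msi3, and 2.58% higher and 1.71% lower in the triple mutant. These shares also stand beside the counts of called genes in the lists below. Of the 20 sporopollenin and exine genes 18 were tested, of which 14 were called higher and 0 lower in msi2 msi3. In the triple mutant 12 were called higher and 0 lower. In msi2 msi3, 14 of the 20 lay wholly above the wild type and 2 wholly below it, beside 13.7% and 13.9% of all genes tested. The lowest log2 fold change of the list there was −1.35. The median log2 fold change of the 17 with a value in the wild type was 1.32 in msi2 msi3 and 0.96 in the triple mutant, beside 0.01 and −2.5e-04 over all genes. CYP703A2, a fatty acid hydroxylase, went from 29.1 ± 16.5 (SD, n = 3) in the wild type to 300.1 ± 28.1 in msi2 msi3 (log2 fold change 3.48 ± 0.33, limma adjusted p = 1.08e-05) and 174 ± 20.7 in the triple mutant (2.70 ± 0.33, limma adjusted p = 1.82e-04). A6, a glucanase-like protein of callose breakdown, went from 136 to 1290 (3.35 ± 0.25, limma adjusted p = 1.10e-06) and 731 (2.53 ± 0.25, limma adjusted p = 2.64e-05). The polyketide synthases PKSA and PKSB rose from 475 to 1184 and from 76.2 to 471 in msi2 msi3, with limma adjusted p of 3.32e-06 and 5.88e-06. LAP3, needed for exine formation, rose from 225 to 466 and 458. SHT, which acylates spermidine, was 0 in every wild type library and had 42.8 ± 14.4 and 69.8 ± 29.0. It thus passed the filter on low values only through the mutants. UPEX1 and CYP98A8 were at 0 in all 9 libraries. Every library of the triple mutant was below every msi2 msi3 library for 10 of the 20 genes and above for 1. Of all genes tested, 7.74% lay wholly below and 9.46% wholly above. In that comparison PKSA (−0.55 ± 0.11, limma adjusted p = 0.0229) and QRT3 (−1.05 ± 0.20, limma adjusted p = 0.0176) fell. Those calls ended without some replicates, with adjusted p up to 0.137 and 0.103.

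Among 15 tested of 16 further pollen coat and tapetal secreted genes, 7 rose and 0 fell in each mutant. Of all genes tested, 3.45% and 2.58% were called higher in the 2 mutants, and 4.15% and 1.71% lower. The 7 include EXL6, which was at 0 in the wild type and passed the filter on low values only through the mutants. The median log2 fold change of the 14 with a wild type value was 1.28 in msi2 msi3 and 1.12 in the triple mutant. ATA20, a glycine-rich tapetum protein, went from 358 ± 45.9 to 1231 ± 103 (1.78 ± 0.12, limma adjusted p = 3.86e-07) and 795 ± 91.5 (1.15 ± 0.12, limma adjusted p = 3.99e-05). AT5G52160 and AT5G62080, annotated as lipid-transfer-type proteins, rose from 139 to 618 and 472, and from 119.9 to 547 and 433. TA1 rose from 31.7 to 287 in msi2 msi3 and 150.5 in the triple mutant. GRP17, the oleosin-type coat protein beside GRP19, went from 0.308 to 19.5 ± 15.8 (limma adjusted p = 0.00188) and 44.7 ± 19.3 (limma adjusted p = 2.10e-04). ATA20 was lower in the triple mutant than in msi2 msi3 (−0.63 ± 0.12, limma adjusted p = 0.0159, up to 0.0886 without a library of msi2 msi3). In that comparison the coat list went both ways, with 4 genes wholly lower and 3 wholly higher of 16. Of all genes tested, 7.74% lay wholly lower and 9.46% wholly higher there. GRP17 and EXL4, with higher means in the triple mutant, were not called (limma adjusted p = 0.395 and 0.251).

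Among the regulators of the tapetum, MYB99 rose in both mutants and 4 others in msi2 msi3. Of 13 tested tapetum regulators, 5 rose in msi2 msi3 and 1 in the triple mutant, and 0 fell. At an unadjusted p below 0.05 there were 8 and 6, all higher, with no share of all genes counted at that threshold. MYB99, which acts downstream of MS1, went from 3.07 to 44.5 (3.51 ± 0.44, limma adjusted p = 1.69e-04) and 32.9 (2.98 ± 0.44, limma adjusted p = 0.00111). BHLH010 and BHLH091, bHLH partners in the cascade, rose in msi2 msi3 from 48.2 to 109.8 and from 6.53 to 45.6, with limma adjusted p of 0.00605 and 0.00868. EMS1, the receptor kinase of early tapetum fate, went from 427 to 577 (0.44 ± 0.11, limma adjusted p = 0.0284), a call that ended without 5 of the 6 libraries in turn, with adjusted p up to 0.132. Its ligand TPD1 had 487, 449 and 474 in the wild type, in msi2 msi3 and in the triple mutant. DYT1 had 1.88, 11.2 and 1.98, and TDF1 4.20, 11.8 and 15.2; neither was called.

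Floral organ genes moved with the members, and their part in the result was not tested. Of 14 tested of 16 floral organ and stamen genes, 9 rose and 0 fell in msi2 msi3, and 7 rose and 0 fell in the triple mutant. PI and AP3, which specify petals and stamens, went from 138 to 402 and 302 and from 103 to 287 and 201. SEP2, a cofactor of floral organ identity, went from 110.3 to 351 (1.67 ± 0.15, limma adjusted p = 8.38e-06) and 265 (1.26 ± 0.15, limma adjusted p = 1.78e-04). The summed value of the list was between 939 and 1158 in the wild type, between 2455 and 2597 in msi2 msi3 and between 1997 and 2088 in the triple mutant, or 2.45 and 1.98 times the wild type mean. Divided by this sum, the members' sum was between 0.189 and 0.359 in the wild type, between 1.06 and 1.16 in msi2 msi3 and between 1.05 and 1.07 in the triple mutant. MYB21, a factor of late stamen growth, was at 0 in all 9 libraries. More cells of a type and more RNA per cell cannot be told apart in these bulk samples. All 9 libraries were labelled seedlings, and floral genes were well above 0 in the wild type too.

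Meiocyte genes were not called, while a few mature pollen genes rose and 2 of the 7 leaf and root markers fell in msi2 msi3. Of 9 meiocyte genes, limma called 0 in either mutant, and at an unadjusted p below 0.05 there were 1 in msi2 msi3 and 0 in the triple mutant. DMC1, the meiotic recombinase, had 449.8, 446 and 516 in the wild type, in msi2 msi3 and in the triple mutant. The summed meiocyte value was between 719 and 978 in the wild type and between 769 and 1018 in msi2 msi3. Of 10 tested of 16 mature pollen genes, 2 rose in msi2 msi3 and 1 in the triple mutant. ACT12, a pollen actin, was at 0 in the wild type and had 11.3 and 7.04, so it passed the filter on low values only through the mutants. Its call in the triple mutant ended in 8 of 14 alternatives (limma adjusted p up to 0.158). AGP11, a pollen arabinogalactan protein, went from 3.96 to 23.5 in msi2 msi3, a call that ended without 4 of the 6 libraries in turn (adjusted p up to 0.0672). The pollen factors MYB97 and DUO1, the sperm histone HTR10 and the sperm gene GEX2 were at 0 in all 9 libraries. Summed leaf and root markers, a sum made mostly of the leaf genes RBCS1A, CAB3 and LHCB1.1, came to 1.07 and 1.12 times the wild type mean. Of 7, CASP1 and PHT1-1, both root genes, fell in msi2 msi3 (16.4 to 0.954 and 103.9 to 58.2). Those calls ended under some settings (limma adjusted p up to 0.0634 and 0.152). The list went both ways there, with log2 fold changes from −3.05 to 1.85. Of the 7, 3 lay wholly above the wild type and 2 wholly below it, beside 13.7% and 13.9% of all genes tested.

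**Figure D3:**
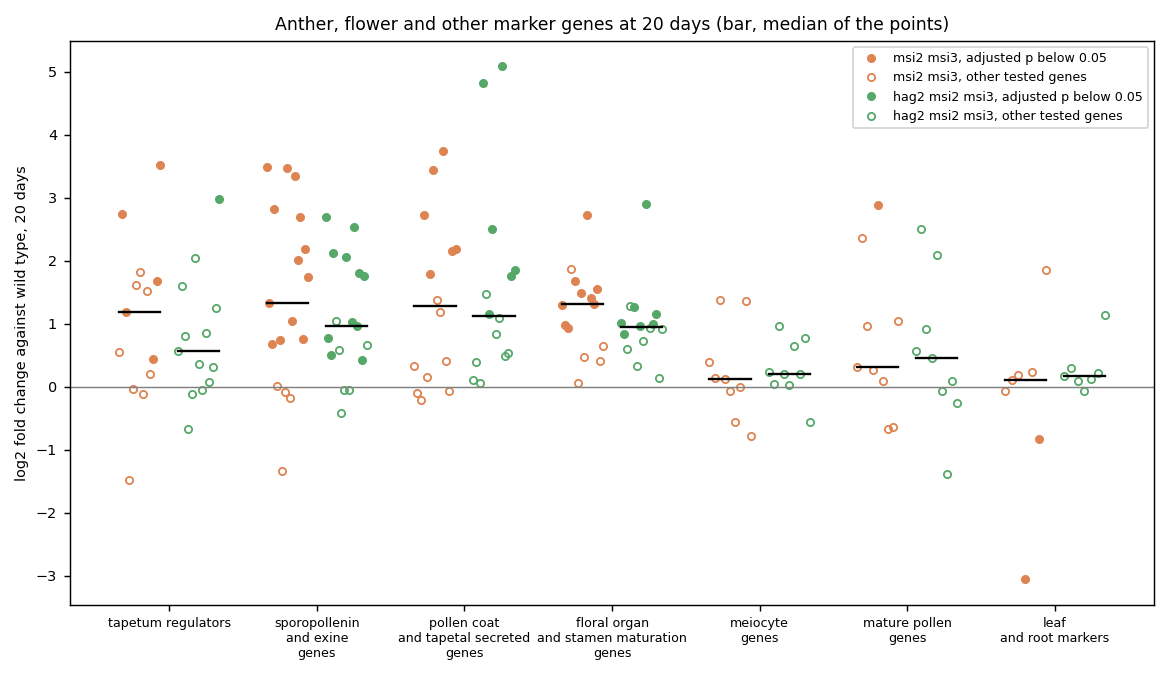
Log2 fold change against the wild type at 20 days (vertical axis) of the tested genes of 7 lists, without genes at 0 in the wild type; orange is msi2 msi3, green hag2 msi2 msi3, filled points have a limma adjusted p below 0.05, and bars are medians. Sporopollenin, pollen coat and floral organ genes sit mostly above 0 in both mutants, with medians from 0.95 to 1.32, and meiocyte genes lie around 0.

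At 12 days most members were at or near 0 in every genotype. A7, ATA27 and MS1 were at 0 in all 15 libraries, and A9 and LTP12 did not exceed 1 in any, so these 5 were not tested. The members' share of all values was between 0.534 and 0.696 per M (parts per mega) in the wild type at 12 days and between 4.61 and 7.50 per M in the wild type at 20 days; the ages were normalized and sequenced separately, so the difference between them was not tested. AMS had 10.07, 6.47 and 8.92 in the wild type and 4.01, 5.77 and 0.955 in hag2 nasp, where it fell (log2 fold change −1.21 ± 0.41, limma adjusted p = 0.0157). That call ended without replicate 3 of hag2 nasp or replicate 1 of the wild type, with adjusted p up to 0.124. In hag2 nasp 33.2% of 24305 genes were called lower and 66.3% in either direction. MS2 had between 0 and 4.95, ACOS5 between 0 and 1.93 and TSM1 between 0 and 1.98 over the 15 libraries, and none of the 3 was called.

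GRP19 was called higher in all 4 mutants at 12 days. It had 0.000619, 0.00538 and 0.993 in the wild type and 4.06, 1.08 and 5.17 in nasp. It had 69.2, 33.0 and 57.8 in hag2 nasp and had 76.0, 50.5 and 79.3 in msi2 msi3 nasp, but had 6.91, 9.92 and 12.5 in the triple mutant. Every mutant library was above every wild type library, a pattern that 13% of all genes tested showed in nasp, 34.8% with hag2 added, 34.3% with msi2 and msi3 added and 12% in the triple mutant (12.2% of genes lay wholly below there). The libraries of both combinations with nasp were above those of the other mutants. In the wild type GRP19, LTP12 and TSM1 shared the same value in each library, all below 1, so GRP19 passed the filter only through the mutants and its fold changes depend on the pseudocount. The log2 fold change was 5.36 ± 0.41 in hag2 nasp (limma adjusted p = 2.32e-09), then 5.76 ± 0.41 in msi2 msi3 nasp (limma adjusted p = 9.00e-10) and 3.06 ± 0.41 in the triple mutant (limma adjusted p = 2.94e-04). These calls held in all alternatives, with limma adjusted p up to 5.39e-07, 2.21e-07 and 0.0045. With no filter on low values they were 8.47e-09, 3.54e-09 and 5.89e-04. With a pseudocount of 5 the log2 fold changes were 3.40, 3.77 and 1.46. In nasp it was 1.67 ± 0.41 (limma adjusted p = 0.0273), a call that ended without replicate 1 or 3 of nasp or replicate 1 or 2 of the wild type, with only the groups compared in the fit, and with a pseudocount of 5 (adjusted p = 0.215). Leaf and root markers moved too: 7 of 7 fell in hag2 nasp, and 7 of 7 where msi2 and msi3 were mutated with nasp, and their mean sum went from 391694 to 170650 and 186207. Those of the floral list that rose were 6 and 5 of 13. The part of these markers in the GRP19 result was not tested. Limma called 33.1% of all genes higher with hag2 nasp, 33.6% with msi2 msi3 nasp, 2.08% with the triple mutant and 2.5% with nasp. Calls in either direction were 66.8% with msi2 msi3 nasp, 4.04% with the triple mutant and 3.89% with nasp, with 33.3%, 1.96% and 1.39% of all genes called lower.

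GRP19 lies in a cluster of glycine-rich oleosin-type genes, and some of its neighbours were higher at 12 days too. How reads that match several such genes were counted is not given in the sources used here, so values within the cluster are less certain. GRP20, the next gene, at chr5:2390207-2391439, went from a wild type mean of 13.6 ± 4.04 to 106 ± 18.2 in hag2 nasp (2.90 ± 0.24, limma adjusted p = 4.92e-09) and reached 103 ± 19.7 in msi2 msi3 nasp (2.86 ± 0.24, limma adjusted p = 6.09e-09). GRP20 had 29.3 ± 0.476 in the triple mutant (limma adjusted p = 0.0141, up to 0.0588 without a library). GRP17 went from 1.37 to 8.47 in hag2 nasp (limma adjusted p = 0.0031) and reached 7.33 in msi2 msi3 nasp (limma adjusted p = 0.00753, 0.0522 without replicate 3 of the wild type). GRP18 had 3.09 in the wild type, was at 0 in hag2 nasp and fell there (limma adjusted p = 0.0288, up to 0.143 in the alternatives). At 20 days GRP20 had 20.5, 28.0 and 31.1 in the wild type, in msi2 msi3 and in the triple mutant, with overlapping libraries.

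EXL4 and EXL6, extracellular lipases of the pollen coat upstream of ATA27, rose at 20 days. EXL4 went from 1.25 ± 2.11 to 16.4 ± 19.7 in msi2 msi3 (limma adjusted p = 0.0398, up to 0.164 in the alternatives) and 47.6 ± 7.08 in the triple mutant (limma adjusted p = 0.00163). EXL6 was at 0 in the wild type and had 14.1 ± 6.77 and 19.1 ± 13.7, so it passed the filter on low values only through the mutants. EXL5, between EXL4 and EXL6, had 7.87 in the wild type, 8.44 in msi2 msi3 and 22.3 ± 12.4 in the triple mutant. EXL3, further upstream, had 1254, 1077 and 1299. Neither EXL5 nor EXL3 was called. The next gene downstream, AT1G75945 at chr1:28515245-28515916 on the minus strand, ran the other way and was chosen after its values were seen. It had 275, 259 and 206 in the wild type, 0 in all 3 msi2 msi3 libraries, and 60.2, 113 and 49.7 in the triple mutant at 20 days. Whether such values reflect less transcription or a different locus in these lines cannot be told apart, as the sequence of the lines was not analysed here. The fall in the triple mutant had a log2 fold change of −1.80 ± 0.37 (limma adjusted p = 0.0106, up to 0.0717 without a library). At 12 days AT1G75945 had 213 ± 9.65 in the wild type, 85.7 ± 26.7 in the triple mutant (limma adjusted p = 3.82e-05), 360.0 ± 31.7 in hag2 nasp (limma adjusted p = 2.19e-04), 196 ± 11.7 in msi2 msi3 nasp and 220.2 ± 10.05 in nasp. It does not overlap ATA27, which ends at base 28514284. AT1G75960, further downstream, rose at 20 days from 1101 in the wild type to 1833 in msi2 msi3 and 1556 in the triple mutant. Both calls held in all alternatives (limma adjusted p up to 4.07e-04 and 0.0118).

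**Figure D4:**
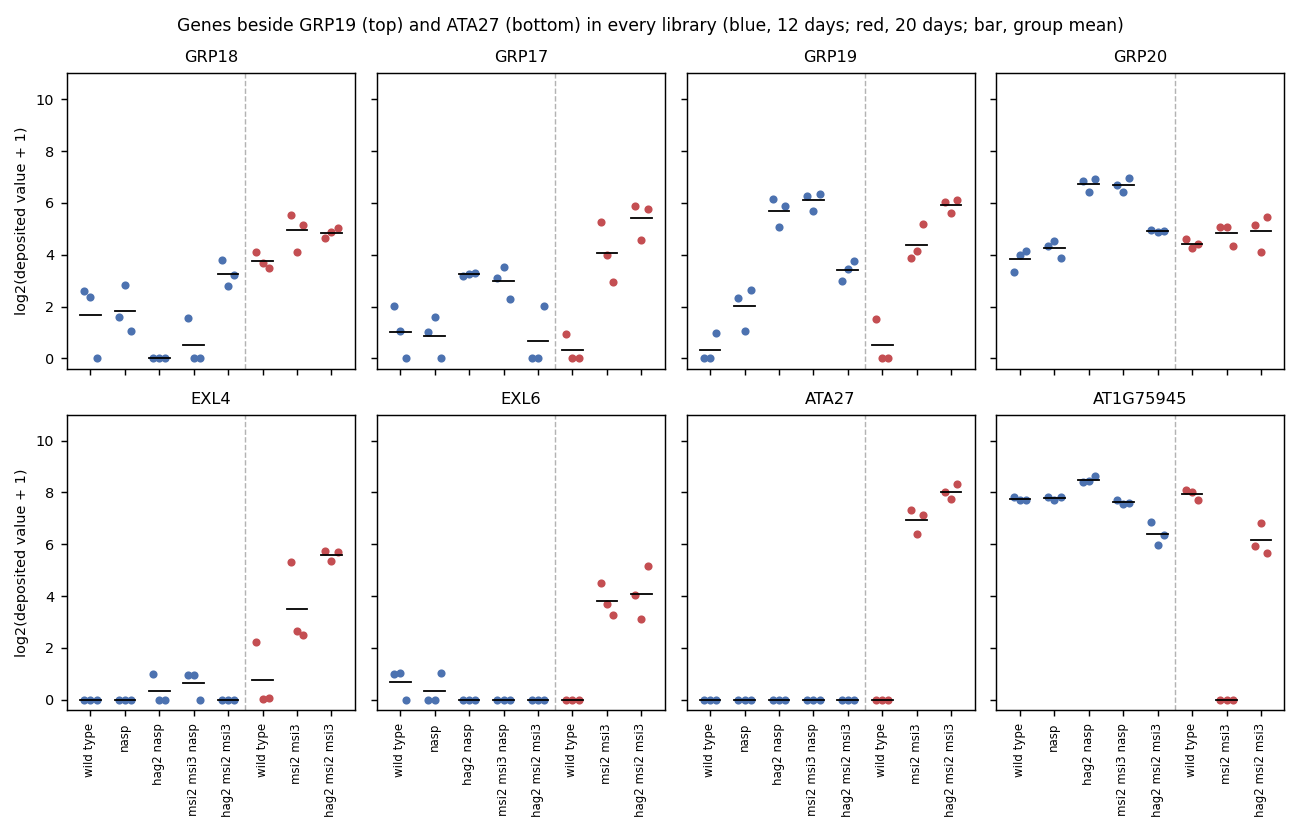
Values as log2(value + 1) (vertical axis) in each library (horizontal axis, by group) of GRP19 and 3 genes of its cluster (top) and of ATA27 and 3 genes beside it (bottom); blue is 12 days, red 20 days, and bars are means of 3. GRP19 and GRP20 are highest in hag2 nasp and msi2 msi3 nasp at 12 days, and AT1G75945 is at 0 only in msi2 msi3.

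By a rule of likeness, 10 genes outside the members followed them most closely over the 9 libraries of 20 days. Likeness was Pearson's r of log2(value + 1) with the mean of the members' standardized values, among 21892 genes whose highest group mean was 5 or more; 97 had r above 0.95. Because the members separate the wild type from the mutants, r mostly measures that separation. AT5G26730, a fasciclin-like arabinogalactan protein (r = 0.996), had 48.0 ± 11.9 in the wild type, 286 ± 12.0 in msi2 msi3 and 231 ± 9.32 in the triple mutant. AT5G13380, of the auxin-responsive GH3 family (r = 0.994), was at 0 in the wild type and at 131 ± 25.1 and 107 ± 22.4. PUP6, a purine permease (r = 0.993), was at 0 and then at 66.5 ± 11.5 and 45.2 ± 13.0. SWEET3, a sugar transporter, had 21.9, 143 and 126, and MIOX2, a myo-inositol oxygenase, 506, 1837 and 1498. AT5G52160, already named among the pollen coat genes, had r = 0.982. The histone genes AT5G10980 (5332, 10942 and 9862) and AT5G65360 (5938, 8414 and 8140.1) were also among the 10, as were AT5G37940, a zinc-binding dehydrogenase, and AT5G02870, a ribosomal protein. At 12 days AT5G13380 had no value above 1 in its group means, as for 5 of the 10 members, while AT5G10980 averaged 2743 in wild type and 11714 in hag2 nasp libraries.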

How the data were processed

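Per the labels, total RNA was extracted with TRIzol and sequenced on DNBSEQ (12 days, 50 bp from one end) or NovaSeq 6000 (20 days, 150 bp from both ends). The authors deposited 1 table per age of a signal, a normalized read value per gene with decimals; per the submitters' processing notes, bcl2fastq, HISAT2, edgeR and TAIR10 were used. The counter, annotation and normalization method are not given in the sources used here, and reads behind a value are unknown, so no counting interval is given. Values above 0 but below 1e-09 were set to 0, which changed 72771 values at 20 days and 0 at 12 days. A 0 at 20 days can therefore be such a value. Of 32548 identifiers, 32547 matched TAIR10.1, whose nuclear chromosomes are those of TAIR10.

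The scale was log2(value + 1). Genes with at least 1 in at least 3 libraries of an age were tested, 24305 at 12 days and 23707 at 20 days, with limma 3.58.1 (lmFit, eBayes with trend) in R 4.3.3. All groups of an age were fitted together, the ages apart, and p-values were Benjamini-Hochberg adjusted over all genes tested, with a threshold of 0.05. The fit was tested on simulated data. A count model was planned for count data and not used, as the values are not counts. The members and the 7 lists (97 genes) were chosen with earlier results of these data known. Named genes are the members, up to 4 genes of each list per 20-day comparison and the 10 most alike genes. The genes of a list were the called ones with the lowest adjusted p. Where fewer than 4 were called, those with the highest wild type mean were added. Genes picked by adjusted p show the strongest calls of a list and not its typical gene. Neighbours of GRP19 and ATA27, the genes called between the mutants, and ABCG26, AP3, DYT1, TDF1, UPEX1, CYP98A8 and genes at 0 were named after their values were seen. Libraries with a shared number were not paired by a correlation over 0.1. Between any 2 libraries of the same age at most 3.03% of the genes tested had identical values. Pseudocount, filter, scaling, samples in the fit, a replicate block and each left-out library were tried as alternatives.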

Additional observations from a re-analysis of the deposited data

Results flagged for a closer look

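For TSM1 and QRT3 the libraries labelled hag2 msi2 msi3 lay on opposite sides of the wild type at the 2 ages, with no overlap within either age; the difference between ages was not tested. At 12 days 12.2% of all genes tested lay wholly below the wild type in these libraries, and limma called neither gene (adjusted p = 0.787 for TSM1 and 0.441 for QRT3). TSM1 was at 0 in all 3 such libraries at 12 days, beside wild type values of 0.000619, 0.00538 and 0.993 (mean 0.333), which are at or near the lowest values of the table, and had 121 beside 0 at 20 days. QRT3, a polygalacturonase that parts the pollen tetrad, had 42.1 beside 55.2 at 12 days and 287 beside 144 at 20 days.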

How the results depend on the processing

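Of the alternative values of members' log2 fold changes at 20 days, 296 moved by less than 1 SD between replicates and 12 by more, with no change of direction among the comparisons with the wild type. Those 12 were GRP19 (2.18 and 3.53 with a pseudocount of 5, 4.59 and 6.13 with 0.5), MS1 with a pseudocount of 5 (2.98 and 2.04), MS2 and ACOS5 without replicate 1 of the wild type (4.80 and 4.13, 3.03 and 2.37) and A9 without replicate 2 (3.85 and 3.34). Between the mutants A7, at −0.03, ran from −0.17 to 0.13 and so changed sign. For GRP19 at 12 days 50 alternatives kept the call and 6, all in nasp, lost it. Leaving out 1 library in turn gave between 1078 and 1351 called genes in msi2 msi3 (1802 with all), 571 to 1308 in hag2 msi2 msi3 (1017) and 104 to 324 between these mutants (281, or 177 with only the groups compared) at 20 days. At 12 days it gave 519 to 721 in nasp (945), 15177 to 15429 in hag2 nasp (16117), 15392 to 15716 in msi2 msi3 nasp (16242) and 441 to 751 in hag2 msi2 msi3 (982). List counts without 1 library were 3 to 4 for tapetum regulators (5), 1 to 2 for mature pollen genes (2) and 0 to 2 for leaf and root markers (2) in msi2 msi3, and 0 to 1 for mature pollen genes (1) and 0 to 1 for leaf and root markers (0) in hag2 msi2 msi3. Leaf and root calls in msi2 msi3 were 1 with no filter and 1 with the replicate block; in hag2 msi2 msi3 mature pollen calls were 0 with a pseudocount of 5, a filter at 5 or only the groups compared, and leaf and root calls 1 with a filter at 5. With replicate number as a block, 1709, 919 and 231 genes were called at 20 days and 989, 16168, 16237 and 996 at 12 days, in the order above. Correlations between same-numbered libraries were between −0.0557 and 0.0625, so no pairing by number was seen in these values. They cannot show whether such libraries were grown or handled together. Depth is unknown, so values near 0 cannot be given an interval, and the cause of each change was not tested.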

Other observations

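At 12 days, pollen coat and floral genes other than the members also differed in hag2 nasp and msi2 msi3 nasp, where 66.3% and 66.8% of all genes tested were called. CEP1, a cysteine protease of tapetal cell death, went from a wild type mean of 27.2 to 225 in hag2 nasp (log2 fold change 3.06 ± 0.22, limma adjusted p = 8.72e-10) and 196 in msi2 msi3 nasp (2.85 ± 0.22, limma adjusted p = 2.18e-09). EXL3 went from 517 to 2071 and 1707, and SEP3 from 178 to 607 and 467. LAP3 and QRT3 of the exine list ran the other way, from 62.1 to 15.7 and 19.2 and from 55.2 to 17.9 and 15.7. Over the pollen coat list 6 rose and 3 fell of 12 tested in hag2 nasp, and over the exine list 3 rose and 7 fell of 14 tested, shares that stand beside 33.1% higher and 33.2% lower over all genes. At 20 days CEP1 had 17.6, 15.6 and 24.3 in wild type, in msi2 msi3 and in the libraries labelled hag2 msi2 msi3, and was not called. AT5G07570, a glycine- and proline-rich protein gene in the GRP19 cluster, rose in all 4 mutants at 12 days (mean 42.2 in the wild type 76.6 in nasp and 77.6 where hag2 was also mutated, then 70.05 for msi2 msi3 nasp and 92.4 for hag2 msi2 msi3, with limma adjusted p between 1.85e-04 and 0.00729) and was not called at 20 days. These genes were picked after their values were seen.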
